A study of Mus musculus with 15 samples.

Results

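The effect of gestational AVP infusion that is shared by both sexes was examined in E18 mouse dorsal forebrain, using all 15 libraries of the series. Of these, 7 came from offspring of AVP-infused dams and 8 from offspring of vehicle (saline) infused dams. Animals were C57BL/6J, and dams carried subcutaneous osmotic minipumps delivering AVP or saline during gestation, so the treatment was given to the mother and no gene was altered. The AVP group held 4 males and 3 females by label, and the vehicle group 4 males and 4 females. Libraries are named AVP 1 to 7 and vehicle 1 to 8 in the order of deposition. By the sample numbers in the labels, AVP 1 to 3 and vehicle 1 to 4 fall in the range 1 to 8, and AVP 4 to 7 and vehicle 5 to 8 in the range 13 to 20. What the numbers stand for is not stated. The question was whether a gene, or the choice between transcripts of a gene, differed between AVP and vehicle after the labelled sex was taken into account.

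Arginine vasopressin (AVP) is a peptide hormone that constricts vessels and retains water through its V1a, V1b and V2 receptors, and its continuous infusion in pregnant mice is used to model preeclampsia. At E18 the dorsal forebrain holds the cortical plate with its deep and upper layer neurons, the remaining progenitors next to the ventricle, migrating interneurons, early glia, vessels, and meninges that can stay attached at dissection. Most genes make several transcripts. Some of these keep an intron, and some carry an early stop codon ahead of an exon junction, which marks them for nonsense-mediated decay (NMD), the pathway that degrades such messages.

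Values are TPM, a measure of transcript abundance scaled to transcript length and to the total of the library. TPM of transcripts were summed to genes. A gene was tested when 50% or more of the libraries held 1 TPM or more of it, on log2(TPM + 0.5) by limma with AVP and labelled sex as terms. Fold changes on this scale are too small for low genes. The depth of a library is unknown from TPM, so no counting interval can be given. The AVP infusion was given to the dam and the 15 libraries came from 8 litters, which the labels do not link to samples. Male and female littermates were therefore treated as independent, and p-values over libraries can be too small.

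The sex labels were checked because sex was a term in every fit. Sex-linked transcripts matched the label in 14 libraries. In vehicle 5, labelled male, Xist stood at 266 TPM and 4 Y-linked genes summed to 0.489 TPM. Its treatment label cannot be checked in this way, and the fits over all genes and transcript shares were also run with vehicle 5 counted as a female and without it.

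No gene passed an adjusted p of 0.05 (0 of 15078, or 0%), and 1 transcript did. That transcript was Zfp120-204, an NMD-annotated form of the zinc finger protein gene Zfp120, whose share of the gene's TPM averaged 1.77% with AVP and 21.5% with vehicle. A share was tested when its mean over all libraries was 5% to 95%. Zfp120-204 therefore entered the test through the vehicle group, where it is high, and its p-values carry that limit. The smallest adjusted p among genes was 0.462 (limma), with 1564 genes at an unadjusted p under 0.05. The count of genes was also 0 with vehicle 5 left out or counted as a female. Of 26576 transcripts whose share was tested, the 1 called is 0.00376%, and 1390 (5.23%) had an unadjusted p under 0.05. The interaction of treatment and sex called 0 of 15078 genes (0%), with 624 at an unadjusted p under 0.05 and a smallest adjusted p of 0.896 (limma).

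Zfp120 (ENSMUSG00000068134) lies on the minus strand of chromosome 2 from 150114406 to 150136708 (GRCm38). Zfp120-204 and the coding transcript Zfp120-201 each have 4 exons and share 4097 bases. Zfp120-201 has 30 further bases in its first exon, and Zfp120-204 has an extension of 84 bases at the end of exon 3, from 150119481 to 150119564. The sequences that set the transcripts apart are shown 5′ to 3′, each starting with the same last 30 bases of the short exon 3 (GENCODE M21 transcripts, GRCm38). In Zfp120-201, capitals mark the first 30 bases of exon 4, which is coding there (chr2:150118171-150118200). In Zfp120-204, capitals mark the annotated stop codon, which begins after 1 base of the extension.
Zfp120-201: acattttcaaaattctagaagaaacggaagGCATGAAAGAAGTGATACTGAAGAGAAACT
Zfp120-204: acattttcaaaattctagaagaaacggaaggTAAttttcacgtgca
The annotated coding sequence is 1308 bases in Zfp120-201, of which 1042 lie in exon 4, and 267 bases in Zfp120-204, which ends in exon 3.

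The Zfp120-204 share had a lowest, median and highest value of 0%, 0% and 6.31% in the 7 AVP libraries and of 12.3%, 19.4% and 34.0% in the 8 vehicle libraries. All 7 AVP libraries lay below all 8 vehicle libraries. In TPM, Zfp120-204 was listed at 0 in 4 AVP libraries and reached at most 0.634 TPM in the others, against 1.15 to 3.345 TPM with vehicle. The difference in share was -19.7 percentage points (adjusted p = 0.0223, limma on the arcsine square root of the share). The exact permutation p over the 2450 ways to deal the labels within each labelled sex was 0.000408, the smallest it can give. The transcript was picked out by its p over the same libraries, which favours a small exact p. The TPM of the whole gene was alike in the groups, at 9.39 ± 1.09 (SD, n = 7) with AVP and 9.43 ± 1.03 (SD, n = 8) with vehicle (log2 fold change -0.01, standard error 0.09). The coding transcript Zfp120-201 had a higher share, of 64.5% ± 16.2 (SD, n = 7) against 42.5% ± 13.8 (SD, n = 8), which was not called. The third main transcript, Zfp120-203, had 30.83% ± 17.17 against 31% ± 8.961. The Zfp120-204 difference was -0.38 on the arcsine scale in labelled males and -0.41 in females, and neither sex alone passed the threshold (adjusted p = 0.4297 and 1, limma). Within libraries numbered 1 to 8 it was -18.7 points and within those numbered 13 to 20 it was -20.8 points. The call held without AVP 3, AVP 4, AVP 5, vehicle 3 or vehicle 7. It was lost without any 1 of the other 10 libraries, AVP 1, 2, 6 and 7 and vehicle 1, 2, 4, 5, 6 and 8, with adjusted p from 0.0625 (without vehicle 5) to 0.117 (limma). With vehicle 5 counted as a female the call held (adjusted p = 0.0211, limma). The share rests on how Kallisto divides reads between transcripts that differ in few bases. The closest other gene, Zfp950, matches 78.2% over 39.7% of the Zfp120 transcript.

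**Figure D1:**
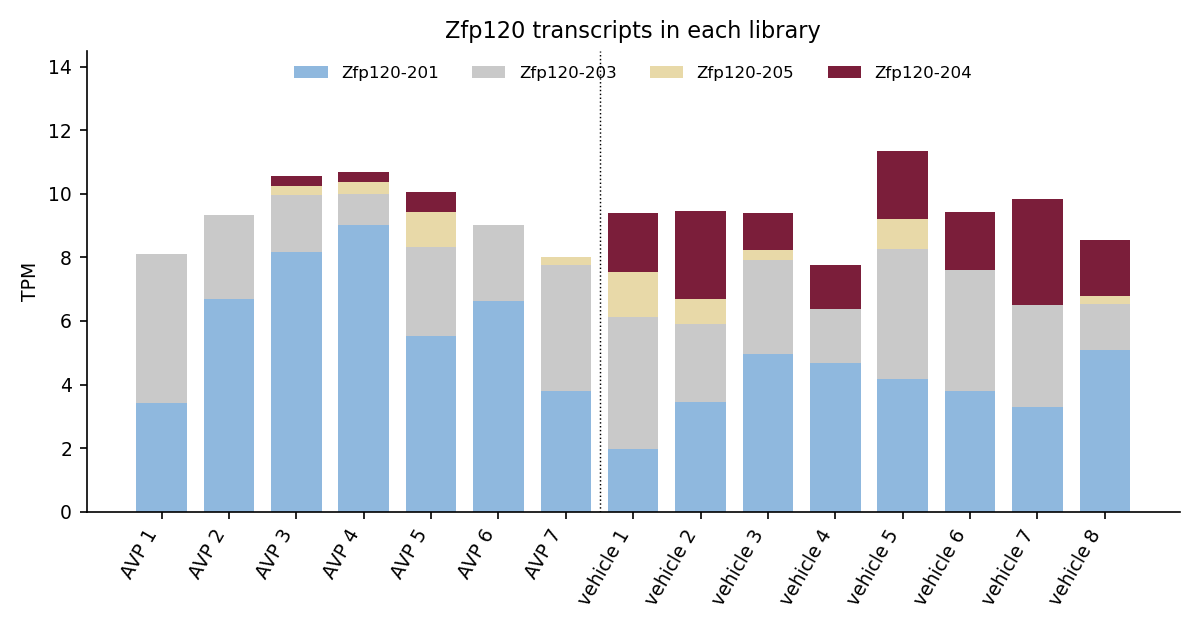
TPM of 4 Zfp120 transcripts, stacked for each library, with the 7 AVP libraries left of the dotted line and the 8 vehicle libraries right of it. Zfp120-204 is at 0 to 0.634 TPM with AVP and between 1.15 and 3.345 TPM with vehicle, while the total height is alike.

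The next transcripts by p, with shares differing by at least 5 points on average, did not pass the threshold (adjusted p of 0.749 or above, limma). They were chosen by p over these libraries, which favours a small exact p and little overlap. Over all transcripts tested, 3 (0.0113%) had AVP and vehicle libraries that did not overlap. They were Zfp120-204, Fars2-208 and Eme2-202, the last of which was named after its values were seen. Fars2 encodes the mitochondrial phenylalanyl-tRNA synthetase. The share of its coding transcript Fars2-208 was listed at 0% in 4 AVP libraries and was at most 5.77%, against 6.76% to 24.3% with vehicle (exact permutation p = 0.00122). The mean share of Fars2-208 was 2.19% with AVP and 13.6% with vehicle, so it too entered the test through the vehicle group. The gene's TPM was 16.7 ± 1.52 (SD, n = 7) with AVP and 16.9 ± 2.05 (SD, n = 8) with vehicle. Fars2-208 has 219 bases that the main transcript Fars2-205 lacks, among them an exon of 84 bases from 36148361 to 36148444 on chromosome 13. Eme2 encodes a subunit of a structure-specific endonuclease, and Eme2-202 took 16.5% to 21.7% with AVP and 8.12% to 15.8% with vehicle (adjusted p = 0.908, limma).

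Cdc45 is part of the replicative helicase. Cdc45-202, which lacks 396 bases of Cdc45-201, among them a stretch of 138 bases (chr16:18808732-18808869), had 10.3%, 24.6% and 33.7% with AVP and 31.1%, 41.1% and 58.5% with vehicle as the lowest, median and highest share. The groups overlapped slightly, the exact permutation p was 0.000408, and the adjusted p was 0.908 (limma). The longer Cdc45-201 had 67.2% against 52.8%, and the gene's TPM was 8.64 ± 1.31 (SD, n = 7) and 8.34 ± 1.07 (SD, n = 8).

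Ptprn encodes a transmembrane protein of dense-core vesicles. The share of its full-length transcript Ptprn-201 was 74.8% ± 6.16 with AVP and 61.4% ± 3.89 with vehicle, and that of the short Ptprn-202, of 410 bases, was 13.6% ± 6.91 and 24.1% ± 6.98. Here the gene's TPM was lower too, at 11.96 ± 4.60 against 18.6 ± 4.39 (log2 fold change -0.66, adjusted p = 0.462, limma). Slc15a2 encodes a peptide transporter. Its retained-intron transcript Slc15a2-204 had 9.52% ± 2.36 with AVP and 15.4% ± 3.22 with vehicle. Rpl37rt-203 had 16.2% ± 12.8 against 39.8% ± 10.6. Rpl37rt is a transcribed copy of Rpl37, matching it at 343 of 344 aligned bases, so its reads cannot be told apart with certainty from those of the ribosomal protein gene.

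**Figure D2:**
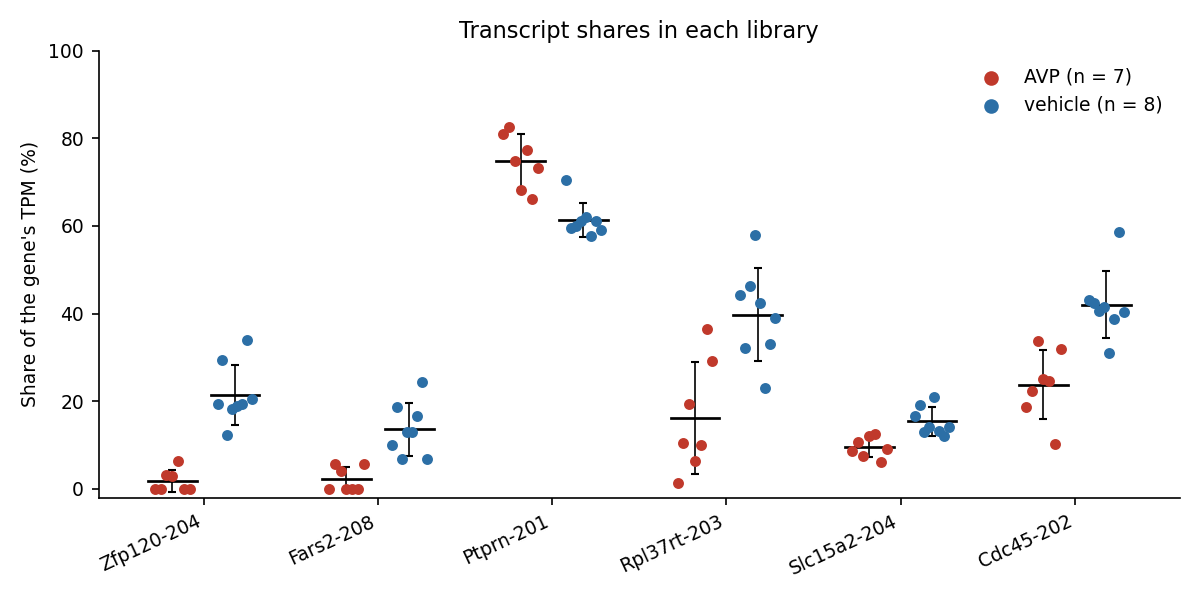
Share of the gene's TPM (percent) held by 6 transcripts in each AVP (red, n = 7) and vehicle (blue, n = 8) library, with horizontal bars for the mean and error bars for 1 SD. Zfp120-204 and Fars2-208 do not overlap between the groups, and only Zfp120-204 passed the adjusted threshold.

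Retained-intron transcripts as a class had lower shares in AVP libraries, which came mainly with 3 libraries. Of 4854 such transcripts tested, 3627 (74.7%) had a lower mean share with AVP (77.4% in labelled males and 53.0% in females), against 42.5% of 16713 coding transcripts and 51.2% of 1653 NMD transcripts. Their mean share was 11.8%, 10.9% and 11.8% in AVP 1, AVP 2 and AVP 3, the AVP libraries numbered 1 to 8, and 14.8% to 15.6% in AVP 4 to 7. In the vehicle libraries it was 12.1% to 16.0%, with the lowest value in vehicle 7. Within libraries numbered 1 to 8, 82.5% of retained-intron transcripts were lower with AVP, and within those numbered 13 to 20, 44.0% were. Leaving out any 1 library moved the pooled figure to between 67.7% and 77.9%. The share of processed, non-coding transcripts was lower with AVP for 61.4% of 2865. What set the 3 libraries apart was not tested. The share of Zfp120-204 was low in all 7 AVP libraries, including the 4 with retained-intron shares like those of vehicle. Whether the Zfp120-204 share is linked to the retained-intron shares was not tested.

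At the gene level, levels were on average slightly lower with AVP, by an amount that depended on scaling. Over all genes the log2 fold change had a median of -0.08, with 3942 genes higher and 11136 lower. At an unadjusted p under 0.05, 103 genes (0.683%) were higher and 1461 (9.69%) lower with AVP. After median-of-ratios scaling, which sets the typical gene level between libraries, the median was -0.01, with 457 genes (3.03%) higher and 681 (4.52%) lower. The share of these genes that were higher moved from 6.59% to 40.2%, and with quantile normalization it was 51.6%. Fold changes below are on the TPM scale unless stated, and are to be read beside the median of all genes. Transcripts under 200 nt held a lowest, median and highest share of TPM of 7.10%, 11.2% and 14.8% with AVP and of 6.86%, 8.41% and 9.09% with vehicle. The exact permutation p was 0.0265 and 0.0704 after adjustment over 5 measures of library composition. Since TPM add to a fixed total, a larger share in short transcripts lowers the TPM of the rest. Most of it lay in Mir6236, with 4.44% to 7.501% of TPM with AVP and 4.47% to 6.08% with vehicle, and in 3 annotated miRNA genes with equal values, Gm23935, Gm24270 and Gm24245. The 3 together held 1.17% to 6.80% with AVP and 0.3795% to 3.32% with vehicle (exact permutation p = 0.0282, adjusted p = 0.0704). Leaving out all transcripts under 200 nt and rescaling gave a median of -0.04, with 298 genes higher and 851 lower at an unadjusted p under 0.05. Mitochondrial genes held 4.37% to 6.81% of TPM with AVP and 4.68% to 9.38% with vehicle (exact permutation p = 0.202).

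**Figure D3:**
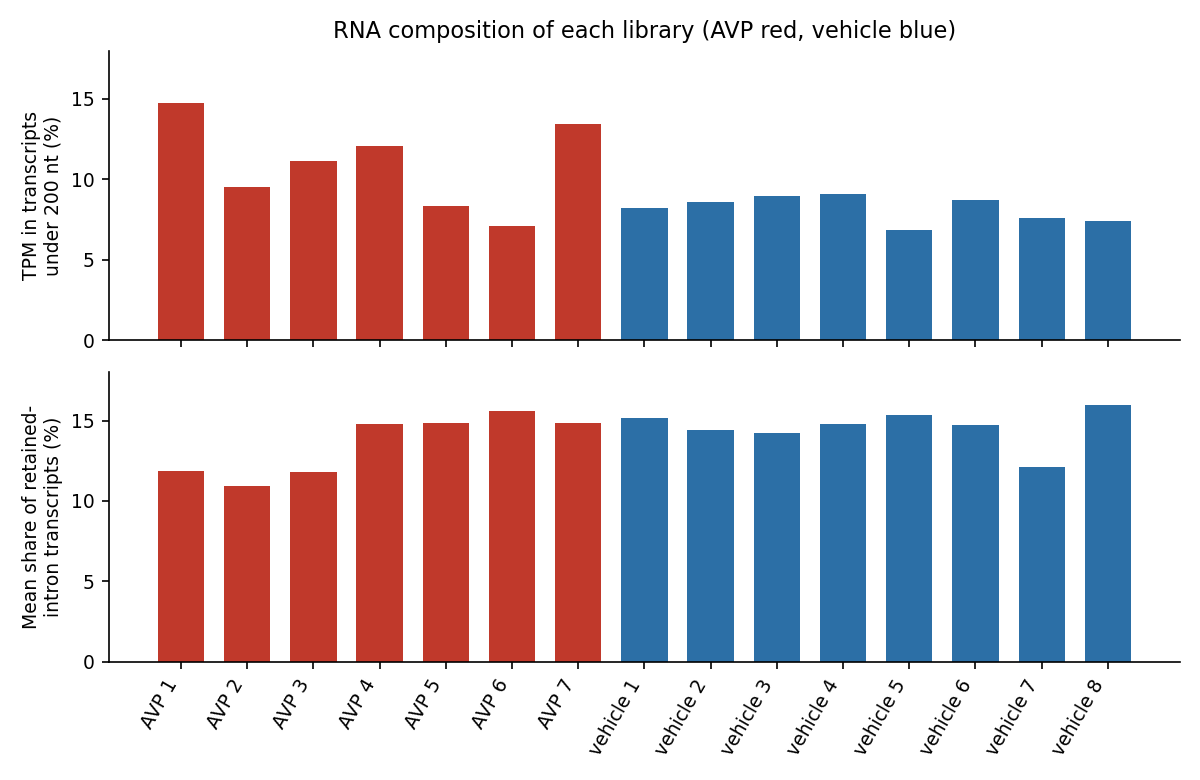
Percent of TPM in transcripts under 200 nt (upper bars) and mean share of retained-intron transcripts within their genes (lower bars, percent) in each AVP (red) and vehicle (blue) library. Short transcripts exceed the highest vehicle value of 9.09% in 5 AVP libraries, and the retained-intron share is lowest in AVP 1, 2 and 3.

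The genes with the smallest p in each direction are given as ranked and not called. Among all genes tested, 7 (0.0464%) had AVP and vehicle libraries that did not overlap. All 7 were lower with AVP on the TPM scale, where 11136 of all 15078 genes were lower. They were Coro2a, Efna3, Ephb6 and Gm17655, which are among the 12 lower genes of smallest p, and Galnt14, Gm3558 and Nln, named here after their values were seen. For these ranked genes the unadjusted p is part of how they were chosen, which also favours a small exact p and groups that do not overlap. The adjusted p was 0.462 for each (limma).

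An ephrin ligand and an Eph receptor, of families that signal between touching cells during axon guidance, were among the lower genes. Whether these genes are linked was not tested, and other members of the families are not given here. Efna3, the ligand ephrin-A3, had 31.4, 36.5 and 40.4 TPM with AVP and 41.8, 43.5 and 48.7 TPM with vehicle as its lowest, median and highest level. Its log2 fold change was -0.29 (standard error 0.06), and the AVP libraries lay below all vehicle libraries. Ephb6, an Eph receptor without kinase activity, had 28.1, 34.5 and 41.9 TPM with AVP and 42.9, 47.2 and 53.7 TPM with vehicle (log2 fold change -0.40, standard error 0.09). These groups did not overlap either. For both genes the exact permutation p was 0.000408, the smallest it can give, which their choice by p over the same libraries favours.

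Coro2a, a coronin that binds actin, had 7.13 to 10.6 TPM with AVP and 10.8 to 14.7 TPM with vehicle (log2 fold change -0.41, standard error 0.08). Akap7, an anchor protein of protein kinase A, had 50.04 to 68.0 TPM against 64.7 to 98.5 TPM (log2 fold change -0.42, standard error 0.09), and 6 of the 7 AVP libraries lay below all vehicle libraries. Rgs6, which speeds GTP hydrolysis by G proteins, had 15.2 to 27.3 TPM against 24.0 to 32.1 TPM (log2 fold change -0.37, standard error 0.09). Sgk1, a kinase induced by glucocorticoids and mineralocorticoids that regulates ion channels, had 16.5, 23.9 and 28.3 TPM with AVP and 25.98, 28.9 and 38.7 TPM with vehicle. Its log2 fold change was -0.40 (standard error 0.10), with -0.41 in labelled males and -0.40 in females, and 6 AVP libraries lay below all vehicle libraries.

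Further lower genes were B4galnt1, which makes the core of complex gangliosides, with 40.3 to 55.1 TPM against 54.7 to 70.2 TPM (log2 fold change -0.30). Plpp5, a lipid phosphatase, had 26.4 to 33.2 TPM against 32.2 to 41.5 TPM (log2 fold change -0.33). Wdr18, a factor in ribosome assembly, had 29.1 to 33.6 TPM against 32.5 to 44.2 TPM (log2 fold change -0.30). Wdr17 had 11.8 to 18.9 TPM against 18.3 to 21.3 TPM (log2 fold change -0.32). Gm17655 had 1.72 to 2.715 TPM against 2.73 to 4.95 TPM (log2 fold change -0.63), and its transcript matches that of 4930522L14Rik at 84.7% over 94.4% of its length. With median-of-ratios scaling the log2 fold changes of the 12 lower genes kept their sign and were smaller in size, such as -0.22 for Efna3.

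Mir1198 had a log2 fold change of -3.17 (standard error 0.65) on the scale with 0.5 TPM added, and its groups overlapped. It reached 1 TPM in 7 vehicle and 1 AVP library, so it too entered the test through the group where it is high. The annotated 121-nt precursor lies within Gripap1 on the plus strand of chromosome X, from 7807101 to 7807221, outside annotated exons of that gene. It was listed at 0 in 6 AVP libraries and at 3.32 TPM in AVP 2. In vehicle it was listed at 0 in vehicle 4 and at 3.07 to 15.8 TPM in the others. Poly(A)-selected libraries do not measure the mature miRNA, whose sequences are shown to identify the locus, with the seed, bases 2 to 8, in capitals (RefSeq, GRCm38.p6).
mmu-miR-1198-5p: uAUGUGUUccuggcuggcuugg
mmu-miR-1198-3p: aAGCUAGCcucuaacucauggc

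Of the 12 higher genes of smallest p, Gm10131 came first (log2 fold change 2.72, standard error 0.49). It lies on the minus strand of chromosome 8 from 34111002 to 34111737 in a single exon. Its values were 0.834, 5.06 and 15.2 TPM with AVP as the lowest, median and highest, and 0 to 1.47 TPM with vehicle, where 4 libraries were listed at exactly 0. All AVP libraries but AVP 3 lay above all vehicle libraries. It reached 1 TPM in 6 AVP and 2 vehicle libraries, so it entered the test through the group where it is high, and its rank and fold change are a description. Its transcript matches the 3′ part of Erh, a small conserved nuclear protein gene on chromosome 12, at 734 of 735 aligned bases. The 1 base that differs is in capitals.
Erh: agcgtgctgtagTgaaccttttgta
Gm10131: agcgtgctgtagCgaaccttttgta
Written as a substitution from Erh to Gm10131 it is T952C, counted from 1 at the 5′ end of Erh-201. Reads of Gm10131 can be told from those of Erh by this base or by their ends, so its level is uncertain.

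Next among the higher genes, Tyms, thymidylate synthase, had 21.6, 27.7 and 33.8 TPM with AVP and 16.8, 20.9 and 27.5 TPM with vehicle (log2 fold change 0.35, standard error 0.11). Gmnn, geminin, which limits DNA replication to once a cycle, had 14.3 to 23.7 TPM against 7.82 to 15.7 TPM (log2 fold change 0.40). Hist3h2a, a histone H2A gene, had 62.1 to 78.0 TPM against 52.5 to 66.3 TPM (log2 fold change 0.20), and 708 of its 2146 exonic bases also belong to Trim17. Nap1l1, a histone chaperone, had 419.9 to 513 TPM against 378.9 to 464 TPM (log2 fold change 0.15). In each of Tyms, Gmnn, Hist3h2a and Nap1l1 the groups overlapped.

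The remaining higher genes were Tbx15, a T-box factor of mesenchymal tissue, with 1.84 to 3.60 TPM against 0.864 to 2.92 TPM (log2 fold change 0.65). Pdlim1, a PDZ and LIM protein of the cytoskeleton, had 2.07 to 4.54 TPM against 1.78 to 2.87 TPM (log2 fold change 0.51). Agbl3, a carboxypeptidase that trims glutamates from tubulin, had 11.8 to 16.1 TPM against 11.3 to 13.4 TPM (log2 fold change 0.21). The long non-coding RNA gene 3110099E03Rik had 1.375 to 3.895 TPM against 0.946 to 2.09 TPM (log2 fold change 0.57). Snord104, a small nucleolar RNA of 70 bases, had 348 to 965 TPM against 239.6 to 542 TPM (log2 fold change 0.75). The 84-nt entry Gm23882 had 9.98 to 50.1 TPM against 0 to 21.9 TPM (log2 fold change 3.14), and 1005 other annotated genes match it at 95% or more over 50% or more of its length, so its level is uncertain. Trmt112-ps2, a processed pseudogene identical to Trmt112 over all of its 378 bases, is uncertain for the same reason (log2 fold change 0.30). All 24 genes had the same direction within both runs of sample numbers, which their choice by p over the same libraries favours.

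**Figure D4:**
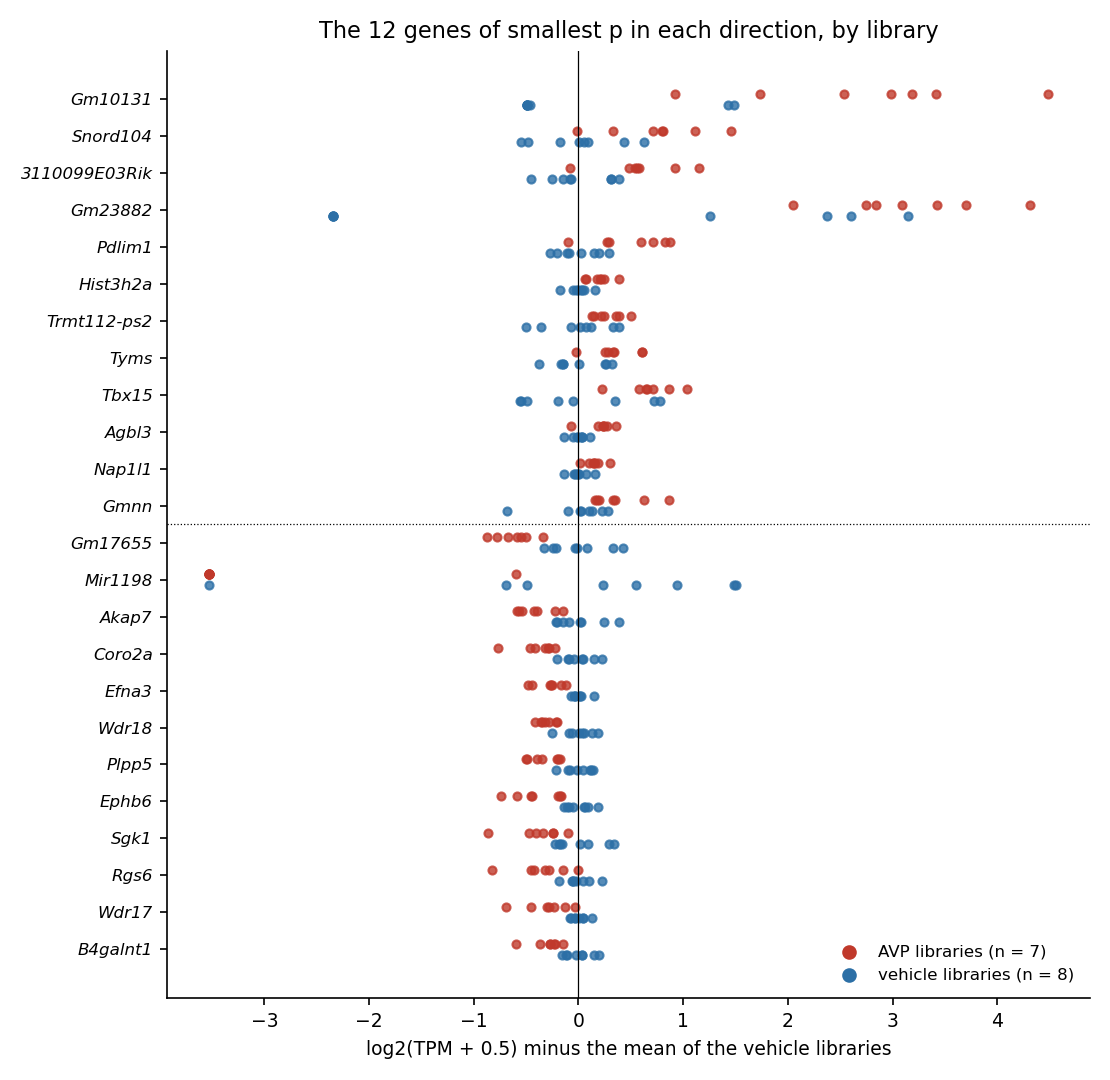
Level of the 12 higher and 12 lower genes of smallest p in each library, as log2(TPM + 0.5) minus the mean of the vehicle libraries, with AVP in red (n = 7) and vehicle in blue (n = 8). Higher genes stand above the dotted line and lower genes below it, and only Gm17655, Coro2a, Efna3 and Ephb6 show no overlap between the groups.

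The vasopressin system was examined because it is the target of the infusion. None of the receptor genes reached the filter in fetal dorsal forebrain. Avpr1a, the vascular and neural V1a receptor, had 0.0599 to 0.625 TPM with AVP and 0.292 to 0.826 TPM with vehicle (exact permutation p = 0.103). Avpr1b, the pituitary V1b receptor, was at most 0.322 TPM, and Avpr2, the renal V2 receptor, was listed at 0 in all 15 libraries. Avp itself was at most 0.366 TPM and Oxt, oxytocin, at most 1.175 TPM. Oxtr, the oxytocin receptor, had a median of 0.942 TPM with AVP and 0.916 TPM with vehicle. Lnpep, the peptidase that degrades both hormones, passed the filter, with 5.40 ± 1.45 TPM (SD, n = 7) and 5.38 ± 1.23 TPM (SD, n = 8). Among water channels, Aqp1, of choroid plexus and red cells, had a log2 fold change of 0.48 (standard error 0.37, adjusted p = 0.596, limma), and Aqp4, of astrocyte endfeet, had -0.28 (standard error 0.23, adjusted p = 0.622, limma). Of 10 water and chloride transport genes tested, 8 were lower, where 11136 of all 15078 genes were, and 3 had an unadjusted p under 0.05, against 9.69% of all genes lower. These were Kcnj10, Slc12a4 and Slc12a7, a potassium channel and potassium-chloride cotransporters. The 3 became 0 without AVP 1, AVP 7 or vehicle 5, and 1 without AVP 3, AVP 4, vehicle 1 or vehicle 2. They became 5 without AVP 6. Over all genes the share lower at that level was 5.5% without AVP 7 and 22.9% without AVP 6. In females 4 of the 10 were higher and 6 lower.

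Lists of genes are described by counts and by their median log2 fold change beside that of all genes, with no test of the list, since 0 members of any list were called. Over all genes 3942 were higher and 11136 lower. After median-of-ratios scaling 3.03% of all genes were higher and 4.52% lower at an unadjusted p under 0.05. On the TPM scale these shares also moved with any 1 library left out. The share higher ran from 0.376% (without vehicle 1) to 1.84% (without vehicle 2). The share lower ran from 5.5% (without AVP 7) to 22.9% (without AVP 6). Counts with a library left out are to be read beside these. In bulk tissue, fewer cells of a type and less RNA per cell cannot be told apart. Cell cycle genes stood higher with AVP. All 26 were higher with AVP, with a median of 0.14, which was 0.22 above that of all genes, and 4 (Birc5, Mcm4, Tyms and Ccnd2) had an unadjusted p under 0.05, against 0.683% of all genes. Birc5, survivin, had 20.5, 25.2 and 39.6 TPM with AVP and 18.6, 22.8 and 27.5 TPM with vehicle. Mcm4, a replication licensing factor, had 15.1 to 21.2 TPM against 14.4 to 18.1 TPM. Mki67, the proliferation antigen, had a log2 fold change of 0.20 and Top2a, topoisomerase II alpha, of 0.26. With median-of-ratios scaling all 26 were higher as well, and 10 had an unadjusted p under 0.05. In labelled males 16 of 26 were higher, with a median of 0.03, and in females 26 of 26, with a median of 0.30. Without any 1 library, 20 to 26 were higher and 1 to 8 had an unadjusted p under 0.05. That number was 1 without AVP 5, AVP 7, vehicle 1, vehicle 3 or vehicle 6, 2 without AVP 3, AVP 6, vehicle 4 or vehicle 8, and 8 without AVP 1 or vehicle 2. Red blood cell genes moved with this list from library to library. Both levels, as mean log2(TPM + 0.5) relative to all genes tested, were highest in AVP 7 (0.90 for cell cycle genes and 6.03 for red cell genes) and AVP 5 (0.75 and 5.47). They were lowest in vehicle 1 (0.10 and 3.34) and vehicle 3 (0.14 and 3.32). The 10 red blood cell genes summed to 3184 to 1.366e+04 TPM with AVP and 2241 to 7129 TPM with vehicle, and 5 of them passed the filter. Intermediate progenitor markers, on the same relative scale, were also highest in AVP 7 (0.92) and AVP 5 (0.79). They were at 0.01 in vehicle 1 and 0.06 in vehicle 3, and lowest in AVP 4 (-0.07). The part of red blood cell genes or intermediate progenitor markers in the cell cycle result was not tested.

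Cholesterol synthesis genes stood lower with AVP. All 21 were lower, with a median of -0.18, which was -0.10 from that of all genes, and 10 had an unadjusted p under 0.05, against 9.69% of all genes lower. Hsd17b7, a sterol reductase, had 6.23 to 10.9 TPM against 8.465 to 11.4 TPM, and Mvd, a mevalonate pathway decarboxylase, 30.9 to 52.0 TPM against 46.4 to 61.4 TPM. The median was -0.14 in labelled males and -0.23 in females, with 20 of 21 lower in each sex. With median-of-ratios scaling 19 of 21 were lower and 5 had an unadjusted p under 0.05. Without AVP 7 the 10 became 3, against 5.5% of all genes lower at that level. Without AVP 6 they became 16, against 22.9% of all genes.

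Genes of the circadian clock and its PAR bZIP outputs were lower for 15 of 16, where 11136 of all 15078 genes were. Their median was -0.21, and 5 had an unadjusted p under 0.05, against 9.69% of all genes lower. In labelled males 15 were lower, 8 at that level (median -0.27), against 12.4% of all genes. In males without vehicle 5 the 8 became 5 (median -0.24), against 7.1% of all genes. In females 12 were lower, 0 at that level (median -0.12), against 2.17% of all genes. With median-of-ratios scaling 15 of 16 were again lower, 3 with an unadjusted p under 0.05. Bhlhe40, a clock repressor, had 5.89, 7.29 and 12.3 TPM with AVP and 9.28, 10.7 and 18.1 TPM with vehicle. Nr1d1, the receptor REV-ERB alpha, had 2.22 to 3.11 TPM against 2.79 to 4.06 TPM. Cry2 had a log2 fold change of -0.23, Per1 of -0.30, and the activators Clock and Arntl of -0.26 and -0.20. The time of day of each dissection is not given in the sources used here. Without vehicle 1 the 5 became 2, and without AVP 6 they became 9. They became 3 without AVP 1, AVP 5, AVP 7, vehicle 3, vehicle 5 or vehicle 8. Over all genes the share lower at that level was 6.01% without vehicle 1, 5.5% without AVP 7 and 22.9% without AVP 6. Of 15 glucocorticoid-responsive genes, 11 were lower, with a median of -0.07, close to that of all genes. Sgk1, Per1 and Klf9 had an unadjusted p under 0.05 (3 of 15, against 9.69% of all genes), which became 1 without AVP 4, AVP 5, AVP 7, vehicle 1, vehicle 3, vehicle 5 or vehicle 8. In the same list Fkbp5 and Tsc22d3, common readouts of the glucocorticoid receptor, had log2 fold changes of -0.01 and -0.07.

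Markers of cells at the brain's border had positive medians, which were larger in females. All 12 meningeal fibroblast markers were higher with AVP, with a median of 0.51, and so were all 6 border macrophage markers tested, with 0.51. All 5 red blood cell genes tested were higher, with 0.64. Dcn, decorin of fibroblasts, had 29.4, 46.9 and 68.7 TPM with AVP and 10.5, 32.3 and 63.6 TPM with vehicle, and Pf4, of border macrophages, 14.02, 17.7 and 32.3 TPM with AVP and 6.21, 12.3 and 26.2 TPM with vehicle. The groups overlapped widely for both. An unadjusted p under 0.05 was reached by 0 of 12 meningeal markers, 3 of 6 macrophage markers and 1 of 5 red cell genes. Over all genes 0.683% were higher at that level. With median-of-ratios scaling the counts were 4 of 12, 4 of 6 and 4 of 5, against 3.03% of all genes. Without that scaling, leaving out any 1 library moved the meningeal count between 0 and 10 (10 without vehicle 2). The macrophage count moved between 0 and 4 and the red cell count between 0 and 5. In labelled males the medians were 0.20, 0.07 and 0.30, and in females 0.88, 1.02 and 1.04. Choroid plexus markers were high in some libraries of both groups. Their summed TPM ran from 9.52 to 2301 with AVP and from 8.54 to 968 with vehicle, mostly from Ttr, which lay above all vehicle libraries in AVP 3 and AVP 7. Of 44 collagen chain genes 29 were tested, and 22 were higher, with a median of 0.21. In labelled males 13 were higher and 18 lower (median -0.03), and in females 23 were higher and 6 lower (median 0.43). The collagen list includes chains that are also fibroblast markers, such as Col1a1, Col1a2 and Col3a1. The adjusted interaction p with sex was 0.896 for Aqp1 and Tbx15 (limma), so a difference between sexes was called for neither gene.

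**Figure D5:**
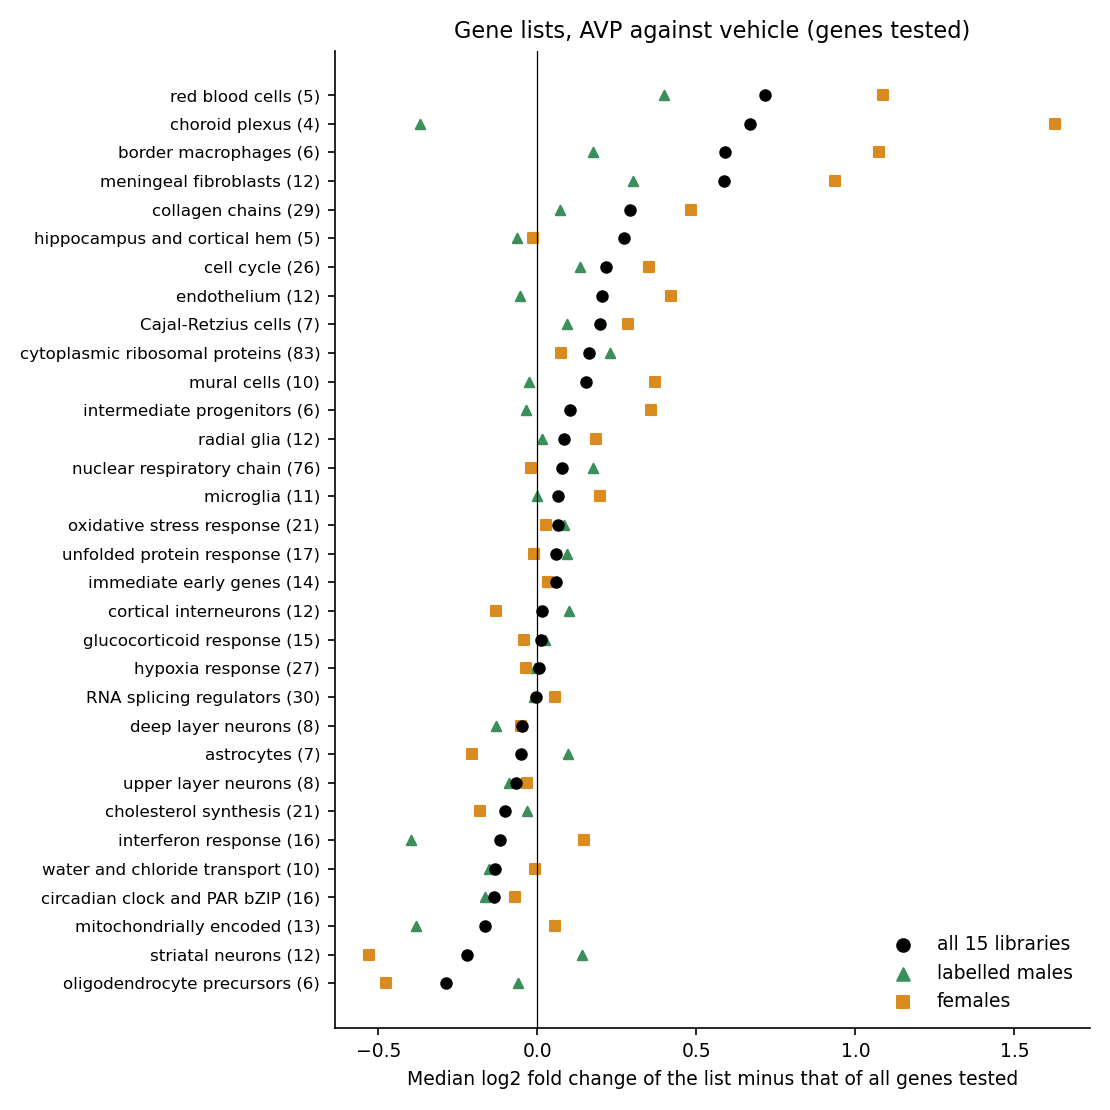
Median log2 fold change of each gene list with at least 4 tested genes minus that of all genes tested, for all 15 libraries (black circles), labelled males (green triangles) and females (orange squares), with the number of genes tested in brackets. Over all 15 libraries border and blood lists lie farthest to the right and the oligodendrocyte precursor list farthest to the left. Several lists change side within a sex. Choroid plexus, endothelium, mural cells and intermediate progenitors are among those to the left in labelled males. Astrocyte and striatal lists lie to the right in labelled males, and interferon and mitochondrial lists to the right in females. The hippocampal list lies to the left in both. In males without vehicle 5, not drawn, the striatal value was -0.13.

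Among neural cells, markers of oligodendrocyte precursors were lower for 6 of 6, where 11136 of all 15078 genes were. Their median was -0.37, and 3 had an unadjusted p under 0.05, against 9.69% of all genes lower. Olig2, the lineage factor, had 6.75, 11.7 and 14.3 TPM with AVP and 11.02, 13.7 and 18.6 TPM with vehicle. Gpr17 had a log2 fold change of -0.51 and Olig1 of -0.46, while Pdgfra had -0.08. Without AVP 7 or vehicle 3 the 3 became 1, against 5.5% and 7.39% of all genes lower at that level. The list's median was -0.16 in labelled males and -0.53 in females, with 0 and 3 genes at an unadjusted p under 0.05. All 8 upper layer neuron markers were lower, with a median of -0.14, and 6 of 8 deep layer markers, with -0.13. Both lay within 0.07 of the median of all genes. Cux2, of upper layers, had a log2 fold change of -0.21 and Ldb2, of deep layers, of -0.31. Tbr1 and Bcl11b, defining factors of deep layers, had 0.01 and 0.01. Tbr1 was at 85.96 to 119.5 TPM with AVP and 90.84 to 109.6 TPM with vehicle. Radial glia markers had a median of 0.00 (-0.09 in labelled males and 0.13 in females). Intermediate progenitor markers had a median of 0.03 (-0.14 in labelled males and 0.31 in females). Cortical interneuron markers had -0.06, with 4 of 12 higher and single genes from -0.38 (Npas1) to 0.22. Astrocyte markers had -0.13, with 2 of 7 higher and single genes from -0.77 (Gfap) to 0.42. Striatal markers had a median of -0.30, but their summed TPM ran from 78.6 to 288 with AVP and from 97.8 to 263.5 with vehicle. Their median was 0.04 in labelled males, -0.21 in males without vehicle 5 and -0.58 in females. Microglia had -0.01, endothelium 0.12, mural cells 0.07, Cajal-Retzius cells 0.12, thalamic markers -0.07 and hippocampal markers 0.19. Several of these medians differed in sign within the sexes. In labelled males microglia had -0.11, endothelium -0.16 and mural cells -0.13, and in females 0.15, 0.37 and 0.32. Hippocampal markers had -0.17 in labelled males and -0.07 in females, both below the pooled median.

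Ribosomal protein genes were slightly higher. Of 83 cytoplasmic ones, 75 were higher, with a median of 0.08, and 6 had an unadjusted p under 0.05, against 0.683% of all genes higher. In labelled males 78 were higher, 24 with an unadjusted p under 0.05 (median 0.12), against 1.11% of all genes higher. In males without vehicle 5 the 24 became 14. In females 53 were higher, with 0 at that level (median 0.02). With median-of-ratios scaling 81 were higher, 14 of them with an unadjusted p under 0.05. Without AVP 6 the 6 became 47, without vehicle 7 they became 11, and without AVP 5, AVP 7 or vehicle 1 they became 3. Over all genes the share higher at that level was 1.13% without AVP 6 and 0.928% without vehicle 7. Rpl35a had 1166, 1449 and 1653 TPM with AVP and 1203, 1270 and 1373 TPM with vehicle. The 76 nuclear genes of the respiratory chain had a median of -0.00, with 35 higher and 41 lower. With median-of-ratios scaling 71 were higher and 5 lower (median 0.07). On the TPM scale 63 were higher and 13 lower in labelled males (median 0.07, which was 0.17 above that of all genes). In females 6 were higher and 70 lower (median -0.07, which was -0.02 from that of all genes). The difference between the sexes was not tested for the list. All 13 mitochondrially encoded genes were lower, with a median of -0.24, which was -0.48 in labelled males and 0.01 in females.

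Hypoxia-responsive genes, which include those of glycolysis, had a median of -0.07, close to that of all genes. Of 27 tested, 24 were lower, where 11136 of all 15078 genes were. An unadjusted p under 0.05 was reached by 4, against 9.69% of all genes lower. Without AVP 7 the 4 became 1, and they became 2 without AVP 2, vehicle 1, vehicle 4 or vehicle 5. Without AVP 6 they became 5. Over all genes the share lower at that level was 5.5% without AVP 7 and 22.9% without AVP 6. Vegfa, the vascular growth factor, had a log2 fold change of -0.45 (standard error 0.20) and Pfkp, a glycolytic enzyme, of -0.60 (standard error 0.24), while Slc2a1 had 0.01 and Pgk1 -0.04. With median-of-ratios scaling 13 of 27 were higher and 14 lower. Oxidative stress genes had a median of -0.01, with 10 of 21 higher, where 3942 of all 15078 genes were. Sod1 had a log2 fold change of 0.06 (standard error 0.06). With median-of-ratios scaling 16 of the 21 were higher and 5 lower. Genes of the unfolded protein response had a median of -0.02, with 7 of 17 higher and 10 lower, Atf4 among the latter at -0.17. With median-of-ratios scaling 11 of the 17 were higher and 6 lower. Interferon-responsive genes were lower for 16 of 16, 3 with an unadjusted p under 0.05, against 9.69% of all genes lower. Their median was -0.20, with -0.50 in labelled males, -0.38 in males without vehicle 5 and 0.09 in females. Immediate early genes had -0.02 and RNA splicing regulators -0.08, with 0 of 30 of the latter at an unadjusted p under 0.05.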

How the data were processed

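Stranded mRNA libraries of E18 dorsal forebrain were sequenced by the authors, trimmed with Trim Galore 0.4.1 and quantified with kallisto 0.43.1 against GENCODE M16 (GRCm38), with bias correction. The authors deposited 133849 transcripts with 1 TPM value for each library. TPM keep no read depth. A further AVP female library was set aside by the study and is not analysed here. TPM were summed to 53337 genes with GENCODE M21, and 404 transcripts without a gene were left out.

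Genes that reached 1 TPM in 50% or more of the libraries were tested with limma 3.58.1 (R 4.3.3, mean-variance trend) on log2(TPM + 0.5), with AVP and labelled sex as terms and Benjamini-Hochberg adjustment over all genes (threshold 0.05). Transcript shares of genes averaging at least 5 TPM, for transcripts with a mean share of 5% to 95%, were tested on the arcsine square root scale. Exact tests were two-sided and dealt the labels within labelled sex (2450 splits). The named genes were the 12 of smallest p in each direction, the transcripts of smallest adjusted p in 6 genes, up to 3 members of smallest p and the first 3 members of each list, and the vasopressin and aquaporin genes. Members and lists were chosen with earlier results of these data known. Sequence likeness was measured with BLAST 2.17.0 on the same strand. Fits were tested on simulated data. Alternatives were pseudocounts, filters, scalings, covariates, single sexes, other share tests and each library left out, and leaving out vehicle 5 with short transcripts, or 4 short entries, counting vehicle 5 as a female in the share fit and leaving it out of the males were added after seeing the data.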

Additional observations from a re-analysis of the deposited data

Results flagged for a closer look

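In 66 groups of 4 to 8 libraries, covering the levels and shares named in the report, library composition and sex-linked transcripts, 9 values stood far from the rest of their group by Dixon's test. Chance gives about 3.3, since about 1 group in 20 is picked out without cause. In vehicle 5, labelled male, Xist was at 266 TPM and the Y-linked genes summed to 0.489 TPM, apart from the other vehicle males. Gm10131 was at 15.2 TPM in AVP 4, Agbl3 at 11.8 TPM in AVP 1 and Mir1198 at 3.32 TPM in AVP 2, where the other AVP libraries were listed at 0. Gmnn was at 7.82 TPM in vehicle 1 and Efna3 at 48.7 TPM in vehicle 5. The Ptprn-201 share was 70.4% in vehicle 1 and the Cdc45-202 share was 58.5% in vehicle 7. The causes were not tested.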

How the results depend on the processing

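The count of 0 called genes held in every alternative run except 2 (limma). Labelled males alone gave 1 (Mir6392), and leaving out each library in turn gave 0 to 1, the 1 being Plxna1 without AVP 6. At an unadjusted p under 0.05 those fits gave 57 to 279 higher and 837 to 3467 lower genes, the lowest count of lower genes without AVP 7 and the highest without AVP 6. The 2 gene alternatives added after seeing the data gave 0. The interaction gave 0 to 1 with each library left out, the 1 without vehicle 1. The count of 1 called transcript share became 0 with a gene mean of at least 10 TPM, where Zfp120 is not tested, 0 in males alone and 0 in females alone. It became 6 with diffSplice, for Zfp120-204, Zfp120-201, Fam189b-210, Hivep3-205, Pomt1-211 and Tent2-202, and 0 to 1 with each library left out. On the logit scale, with array weights, without the sex term and with sample numbers added, Zfp120-204 was called, with adjusted p from 0.0026 to 0.0354 (limma). Of the fold changes of the 24 named genes, 845 values under alternatives kept their sign and their side of the threshold. Of 141 values for the 6 named shares, 129 did so and 12 lost the call of Zfp120-204. Of 72 counts at an unadjusted p, 45 stayed within 1.5 times and 27 did not. No paired analysis was possible because the labels give no replicate numbers shared between groups. Depth is unknown from TPM, so values near 0, such as those of Zfp120-204 and the vasopressin receptors, have no known detection limit.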
